A study of Homo sapiens with 6 samples.

Results

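Interferon-stimulated genes are the antiviral and immune genes that cells switch on when interferon binds its receptors. The 45 genes described here were chosen by name, and each of the 45 was found among the 61267 genes of the deposited count table. RNA of THP-1 cells was sequenced in 3 libraries labelled KD and 3 labelled NC. THP-1 is a line grown from a human monocytic leukemia. Cells of both groups were made adherent with phorbol ester (PMA, 100 ng/ml for 48 h), so both groups carry that treatment and no library without it was analysed. METTL1, which puts 7-methylguanosine into tRNA, stands in the series title together with macrophages in acute inflammation, but the labels name no target, agent or vector for KD and do not say what NC received. Nothing in the labels tells separate cultures or clones from repeat preparations, so the p-values refer to a spread that may be technical only. KD and NC are used here as names of libraries.

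Type I interferons act through the receptor chains IFNAR1 and IFNAR2 and the kinases JAK1 and TYK2, which activate STAT transcription factors. These join IRF9 into a complex that binds interferon-stimulated response elements in promoters, while interferon gamma works mainly through a different element, the gamma-activated site. The products detect foreign nucleic acid, block viral entry, translation or release, modify host proteins, or dampen the signal, and macrophages hold many of them at a basal level without infection.

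Depth was 37628972 to 42970216 counts per library, and the genes described took 0.314% to 0.316% of all counts in KD libraries, against 0.232% to 0.238% in NC libraries. METTL1 held 567, 528 and 524 counts in KD libraries, against 596, 653 and 642 in NC libraries, and did not pass the test (log2 fold change, KD over NC, -0.10, edgeR adjusted p = 0.216). Its partner WDR4 averaged 4.77 ± 0.713 CPM in KD and 7.27 ± 0.317 CPM in NC libraries (SD, n = 3 each, edgeR adjusted p = 5.04e-05). With library sizes alone METTL1 did pass (-0.29, edgeR adjusted p = 0.00249). Levels are given as CPM, counts scaled to library sizes that were adjusted with TMM, a method that assumes most genes to be level. Here 76.5% of all tested genes passed the test in either direction, so that assumption may not hold. Of 57 genes largely restricted to leukocytes, 55 were higher in KD and 0 lower, with a median log2 fold change of 1.18 and a summed level of 10775 to 10982 CPM in KD, against 4139.8 to 4370.2 CPM in NC libraries. Macrophage markers were present at unequal levels. CD68 was highest at 868 CPM in KD and 509 CPM in NC libraries, and the transcription factor SPI1 averaged 307 CPM in KD and 129 CPM in NC libraries. FCGR1A averaged only 5.09 CPM in KD and 2.05 CPM in NC libraries, and MRC1, at 0.254 CPM in KD and 0.203 CPM in NC libraries, was too low to be tested. All 13 of 13 tested macrophage markers were higher in KD, but CSF1R, ITGAM, SPI1 and CD33 are also among the 57 leukocyte genes. All 13 genes of a list for HEK293-type and neural cells were lower in KD, but the lists were chosen with earlier results of these data known. These 13 genes summed to 11.7 to 13.1 CPM in KD, against 2033 to 2397 CPM in NC libraries. The neurofilament gene NEFM alone averaged 0.390 CPM in KD and 1595 CPM in NC libraries, and LIN28B, POU3F3, ID4, GALNT13 and ZCCHC12 had no count in any KD library. CDKN2A, which THP-1 cells are known to lack, held 0, 7 and 6 counts in KD libraries, against 1484, 1521 and 1637 in NC libraries. Lists for epithelial cells had 0 higher and 6 lower of 7 tested, fibroblasts and muscle 1 and 2 of 3, T and NK cells 3 and 0 of 4, B and plasma cells 0 and 3 of 3, and erythroid and megakaryocytic cells 1 and 1 of 2. Among all tested genes 36.2% were higher and 40.3% lower, and the lists of 2 to 4 genes are too short to be read against that. What part RNA of other cells has in the differences given here was not tested, and in bulk RNA fewer cells of a type cannot be told apart from less RNA per cell. The differences in the list are therefore given on the scale of all tested genes and on a leukocyte scale, in which the 57 leukocyte genes set the library sizes. The median log2 fold change of all tested genes was -0.046 on the first scale and -1.23 on the leukocyte scale. On the latter METTL1 stood at -1.29 (edgeR adjusted p = 5.57e-15) and WDR4 at -1.79 (edgeR adjusted p = 4.28e-14).

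The interferon-stimulated genes did not move as a block. On the scale of all tested genes, levels were higher in KD for 29 of 44 genes of the list and lower for 9, which is 65.9% and 20.5%, against 36.2% and 40.3% of all 21905 tested genes (edgeR quasi-likelihood test, Benjamini-Hochberg adjusted p of 0.05). In either direction that is 38 of 44, against 76.5% of all tested genes. The remaining 6 did not pass, and 1, ZBP1, had too few counts to be tested. The leukocyte scale gave 3 higher and 38 lower, or 6.8% and 86.4%, against 3.65% and 82.9% of all tested genes, so the share lower is near the background there. Without TMM, on library sizes alone, 23 were higher and 13 lower, against 28.4% and 47.3% of all tested genes. The median of the list lay between those of the leukocyte genes and of all tested genes, while single genes lay beyond both. The median log2 fold change was 0.40, against -0.046 for all tested genes and 1.18 for the leukocyte genes, and on the leukocyte scale it was -0.78. Only 4 of the 44 genes, IFI16, DDX60L, PARP14 and SP100, lay above the leukocyte median. Summed over the list, levels were 3302 to 3407 CPM in KD, against 2186 to 2231 CPM in NC libraries, but 2146 to 2279.5 in KD, against 3275 to 3362 in NC libraries on the leukocyte scale. The sum on the first scale was higher in every KD library than in any NC library, and on the leukocyte scale it was lower in every KD library.

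**Figure D1:**
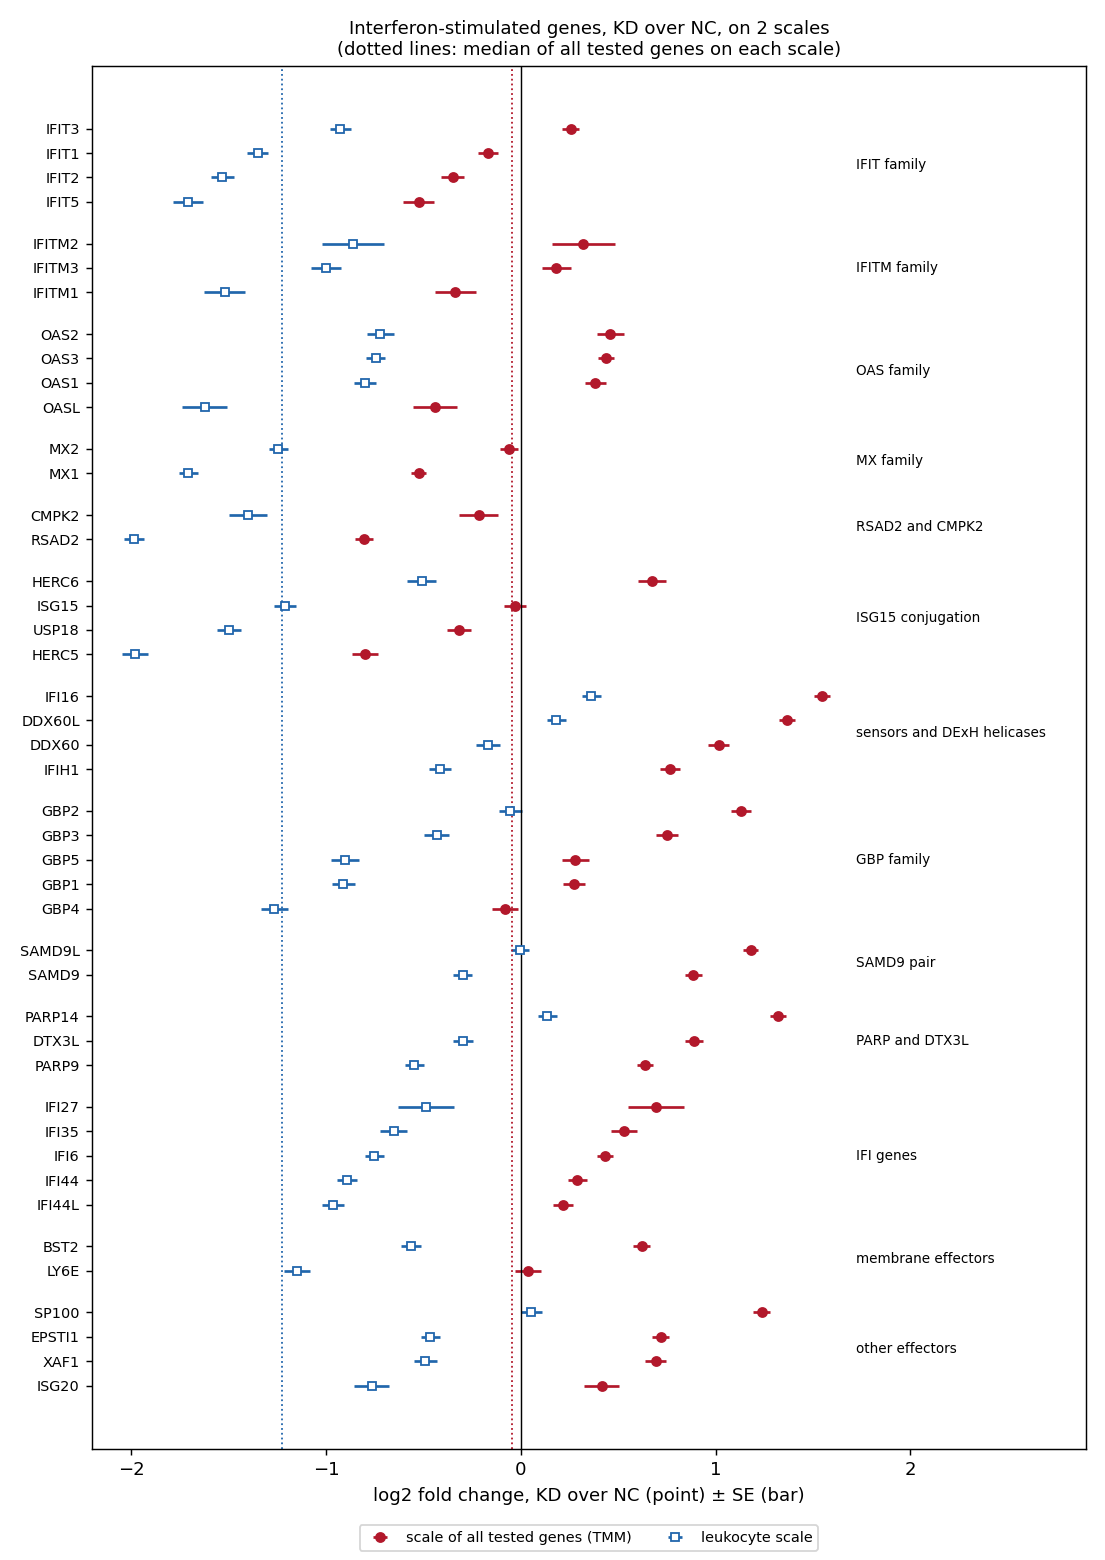
Log2 fold change, KD over NC (x axis), of the 44 tested interferon-stimulated genes (rows, grouped by role). Filled circles are on the scale of all tested genes and open squares on the leukocyte scale, bars are SE, and dotted lines mark the median of all tested genes at -0.046 and -1.23. The circles run from -0.80 for RSAD2 to 1.55 for IFI16, and most that lie right of 0 have their squares left of 0.

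The span of the list does not depend on the scale. From RSAD2 at -0.80 to IFI16 at 1.55 on the scale of all tested genes, the same genes stood at -1.99 and 0.36 on the leukocyte scale. On the scale of all tested genes, 7 genes were at least 2-fold higher and past the test, against a background of 12.6% of all tested genes. They were IFI16, DDX60L, PARP14, SP100, SAMD9L, GBP2 and DDX60. No gene of the list was at least 2-fold lower on that scale (0 of 44), where 22.9% of all tested genes were. Both counts depend on the scale. On the leukocyte scale RSAD2, HERC5 (-1.98), MX1 (-1.71) and others were more than 2-fold lower, and the largest value was that of IFI16. The median of all tested genes there was -1.23. Groups did not overlap in CPM, higher in KD, for 29 genes (background 36.7%) and, lower in KD, for 10 (background 41.3%, and 78% in either direction). Replicates were close, with a median coefficient of variation of 3.72% in KD and 4.44% in NC libraries. The widest spreads were 11.5% for LY6E in KD and 25.1% for IFI27 in NC libraries.

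**Figure D2:**
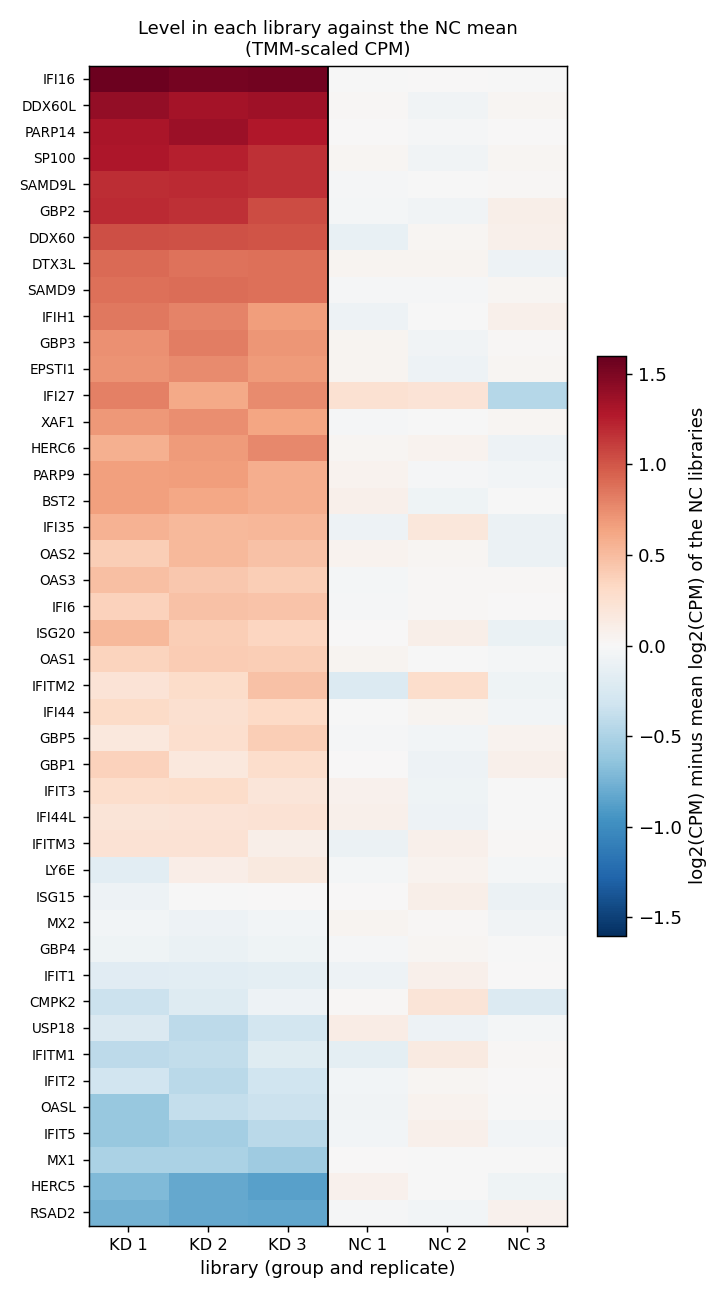
Level of each of the 44 tested interferon-stimulated genes (rows, ordered by fold change) in each library (columns, KD left of NC), as log2(CPM) minus the mean log2(CPM) of the NC libraries on the scale of all tested genes. The 3 KD columns look alike from IFI16 at the top to RSAD2 at the bottom, and IFI27 and CMPK2 are among the rows in which the NC libraries differ from each other.

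Promoters were available for 35 of the 45 genes, as 250 bases before to 50 bases after the start given by RefSeq (GRCh38.p14). None was in the table for IFIT2, IFITM2, OAS2, OASL, MX2, USP18, ZBP1, GBP2, GBP5 and LY6E. The interferon-stimulated response element was searched by its core, GAAA and GAAA with 2 bases of any kind between them, on both strands. It occurred in 25 of these 35 promoters (71.4%), against 3.65% of 27305 promoters of the same length. TTCNNNGAA, the gamma-activated site, which reads the same on both strands, occurred in 9 (25.7%, against 7.88% of all). The same core with 1 base between, GAAANGAAA, searched on both strands after the sequences were seen, occurred in 11 (31.4%, against 3.22% of all), and matches of these patterns can overlap. The response element was present among genes of each direction. It was found for 18 of 26 genes higher in KD, 5 of 6 lower and 2 of 3 that did not pass, on the scale of all tested genes. The median log2 fold change was 0.42 for the 25 genes with the core spaced by 2 bases and 0.66 for the 10 without it. These 10 are not all free of such elements. RSAD2, OAS1, IFI35 and XAF1 among them held the core with 1 base between, and 6 had neither pattern.

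The promoters of 6 genes are printed below, 5′ to 3′ on the gene's own strand, because they belong to the genes on which the results turn. PARP14 and IFI16 are among the largest rises, RSAD2 and HERC5 are the largest falls, HERC6 is the neighbour of HERC5 that went the other way, and ISG15 did not pass. Capitals mark matches of the core with a spacing of 2 bases or of 1 base on either strand, where overlapping matches run together.
PARP14 (chr3:122680589-122680888, plus strand): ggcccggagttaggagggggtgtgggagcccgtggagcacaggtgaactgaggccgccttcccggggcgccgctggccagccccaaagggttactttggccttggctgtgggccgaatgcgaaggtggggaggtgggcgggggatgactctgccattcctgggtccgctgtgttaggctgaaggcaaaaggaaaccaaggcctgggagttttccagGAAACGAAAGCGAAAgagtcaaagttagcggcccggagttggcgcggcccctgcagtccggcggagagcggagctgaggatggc
IFI16 (chr1:159008741-159009040, plus strand): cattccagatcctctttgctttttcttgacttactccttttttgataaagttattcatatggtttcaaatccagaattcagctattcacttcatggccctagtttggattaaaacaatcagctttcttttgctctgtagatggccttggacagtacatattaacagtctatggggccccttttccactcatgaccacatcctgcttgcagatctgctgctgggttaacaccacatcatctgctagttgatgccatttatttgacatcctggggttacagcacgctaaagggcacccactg
RSAD2 (chr2:6865635-6865934, plus strand): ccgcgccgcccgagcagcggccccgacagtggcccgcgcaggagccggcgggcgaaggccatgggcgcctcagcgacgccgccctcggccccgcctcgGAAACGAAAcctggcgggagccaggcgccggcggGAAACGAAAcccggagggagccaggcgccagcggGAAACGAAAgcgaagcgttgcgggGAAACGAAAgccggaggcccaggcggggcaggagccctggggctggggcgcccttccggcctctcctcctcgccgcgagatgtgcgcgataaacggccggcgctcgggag
HERC5 (chr4:88456869-88457168, plus strand): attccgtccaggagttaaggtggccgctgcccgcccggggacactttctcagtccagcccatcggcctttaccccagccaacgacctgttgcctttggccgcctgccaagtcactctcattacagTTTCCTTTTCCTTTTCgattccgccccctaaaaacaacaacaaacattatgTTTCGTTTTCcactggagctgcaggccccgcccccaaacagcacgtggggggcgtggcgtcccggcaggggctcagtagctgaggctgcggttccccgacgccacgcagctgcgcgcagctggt
HERC6 (chr4:88378602-88378901, plus strand): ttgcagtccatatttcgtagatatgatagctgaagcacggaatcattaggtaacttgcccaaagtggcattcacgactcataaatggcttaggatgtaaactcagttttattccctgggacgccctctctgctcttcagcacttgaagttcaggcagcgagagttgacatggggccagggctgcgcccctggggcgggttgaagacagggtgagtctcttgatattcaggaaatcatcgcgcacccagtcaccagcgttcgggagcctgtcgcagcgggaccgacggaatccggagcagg
ISG15 (chr1:1013247-1013546, plus strand): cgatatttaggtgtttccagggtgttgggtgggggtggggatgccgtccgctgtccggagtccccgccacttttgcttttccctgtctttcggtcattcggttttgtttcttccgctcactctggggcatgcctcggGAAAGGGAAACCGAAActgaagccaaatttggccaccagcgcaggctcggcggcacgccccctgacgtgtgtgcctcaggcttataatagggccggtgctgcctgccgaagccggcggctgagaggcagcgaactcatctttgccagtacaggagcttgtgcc
PARP14 held 1 match with the spacing of 2, overlapped by 1 with the spacing of 1. With the spacing of 2, HERC5 held 3 and ISG15 2. RSAD2 had none of these and 4 with the spacing of 1. IFI16 and HERC6 had neither pattern in this window, which says only that these letters are not there. The RefSeq starts used for IFI16, RSAD2, HERC6 and ISG15 lie inside the genes as the count table gives them (IFI16 begins there at 158999968 and ISG15 at 1001138), so other starts are not shown.

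The 2 largest rises of the list were among nucleic acid sensors and related helicases. There 4 of 4 tested genes were higher on the scale of all tested genes and 2 were lower on the leukocyte scale. The background is 36.2% higher on the first scale and 82.9% lower on the second. A group of 4 genes is too small to be read against it. IFI16 (chromosome 1, 158999968 to 159055155, plus strand, GRCh38), a sensor of DNA in the nucleus, stood at 178, 174 and 175 CPM in KD libraries, against 60.1, 60.5 and 59.6 CPM in NC libraries. IFI16 rose by 1.55 with an SE of 0.040 (edgeR adjusted p = 5.93e-21) on the log2 scale, and was higher by 0.36 on the leukocyte scale (edgeR adjusted p = 4.14e-08) too. Every KD library lay far above every NC library. DDX60L (chromosome 4, 168356735 to 168537786, minus strand), a paralog of the antiviral helicase DDX60, stood at 208, 198 and 200.1 CPM in KD libraries, against 79.5, 75.4 and 80.0 CPM in NC libraries. DDX60L rose by 1.37 with an SE of 0.042 (edgeR adjusted p = 1.32e-19) on the log2 scale, and stood at 0.18 on the leukocyte scale (edgeR adjusted p = 0.00112). Its paralog DDX60, which can share reads with it, rose too (1.02), whereas it was lower on the leukocyte scale (-0.17). IFIH1, the sensor of long double-stranded RNA also called MDA5, had a log2 fold change of 0.77, or -0.42 on the leukocyte scale. ZBP1, which recognises Z-form nucleic acid and can start necroptosis, held 0, 2 and 0 counts in KD libraries, against 4, 8 and 0 in NC libraries, too few for a comparison. Of the exon bases of IFI16, 8.03% also lie in exons of PYDC5 on the other strand, and no source says whether the counting used strand.

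The ADP-ribosylation genes and the SAMD9 pair also rose on the scale of all tested genes, where 3 of 3 and 2 of 2 were higher. The background is 36.2% higher, and groups of 2 or 3 genes are too small to be read against it. PARP14 (chromosome 3, 122680839 to 122730840, plus strand), which attaches single ADP-ribose units to proteins, stood at 194, 203 and 190.2 CPM in KD libraries, against 78.9, 77.8 and 79.0 CPM in NC libraries. PARP14 rose by 1.32 with an SE of 0.041 (edgeR adjusted p = 1.90e-19) on the log2 scale, and stood at 0.14 on the leukocyte scale (edgeR adjusted p = 0.0123). No KD library came near the NC range. DTX3L, a ubiquitin ligase, and PARP9, its partner, are read from opposite strands of 1 region and share 139 exon bases. Their log2 fold changes were 0.89 and 0.64, and -0.30 and -0.55 on the leukocyte scale. SAMD9L (chromosome 7, 93130056 to 93148385, minus strand), which with SAMD9 restricts poxviruses and cell growth, stood at 132, 134 and 132 CPM in KD libraries, against 57.9, 58.4 and 59.6 CPM in NC libraries. SAMD9L rose by 1.18 with an SE of 0.040 (edgeR adjusted p = 9.99e-19) on the log2 scale, but stood at -0.0037 on the leukocyte scale (edgeR adjusted p = 0.943), where it did not pass. KD and NC libraries did not overlap. SAMD9 was at 0.89 and, on the leukocyte scale, at -0.30.

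All 4 genes of a mixed group of effectors were higher on the scale of all tested genes, and 3 of them were lower on the leukocyte scale. With a background of 36.2% higher on the first scale and 82.9% lower on the second, 4 genes are too few to be read against it. SP100 (chromosome 2, 230415942 to 230545606, plus strand) is a component of PML nuclear bodies. It had the highest mean CPM of the list in KD libraries, while BST2 had the highest in NC libraries (231 CPM). SP100 stood at 411, 398 and 375 CPM in KD libraries, against 170.4, 161 and 171 CPM in NC libraries. SP100 rose by 1.24 with an SE of 0.044 (edgeR adjusted p = 2.61e-18) on the log2 scale and stood at 0.053 on the leukocyte scale (edgeR adjusted p = 0.351), where it did not pass. All KD libraries were above all NC libraries on the first scale. EPSTI1 (0.72), the XIAP antagonist XAF1 (0.69) and the exonuclease ISG20 (0.42) were higher, where the brackets hold log2 fold changes, and stood at -0.46, -0.49 and -0.77 on the leukocyte scale. Reads of XAF1 are uncertain, since 38.3% of its exon bases also lie in PRAL on the other strand.

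Guanylate-binding proteins are large GTPases, induced most by interferon gamma, that coat pathogens and the vacuoles that hold them. Of 5 genes in 1 cluster on chromosome 1, 4 were higher on the scale of all tested genes, while 4 were lower on the leukocyte scale, against 36.2% higher on the first and 82.9% lower on the second among all tested genes. GBP2 (chromosome 1, 89106132 to 89150456, minus strand) stood at 77.3, 76.1 and 69.6 CPM in KD libraries, against 33.1, 32.6 and 36.2 CPM in NC libraries. GBP2 rose by 1.13 with an SE of 0.052 (edgeR adjusted p = 4.71e-16) on the log2 scale and stood at -0.053 on the leukocyte scale (edgeR adjusted p = 0.397), where it did not pass. KD and NC libraries were clearly apart. GBP3 (0.75), GBP5 (0.28) and GBP1 (0.27) rose by less on the scale of all tested genes, and GBP4 at -0.082 did not pass (edgeR adjusted p = 0.279) although its groups did not overlap, where the brackets hold log2 fold changes. When library sizes were used alone, GBP1 (0.086, edgeR adjusted p = 0.18) and GBP5 (0.094, edgeR adjusted p = 0.264) did not pass and GBP4 was lower (-0.27, edgeR adjusted p = 0.00196). On the leukocyte scale these stood at -0.43 for GBP3, -0.90 for GBP5, -0.91 for GBP1 and -1.27 for GBP4. GBP1 and GBP3 are close relatives whose reads can be confused.

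The OAS enzymes make short 2'-5'-linked oligoadenylates when they bind double-stranded RNA. OAS1, OAS2 and OAS3 were higher by similar amounts on the scale of all tested genes, at 0.38, 0.46 and 0.44, and lower on the leukocyte scale, at -0.80, -0.72 and -0.75. OAS3 (chromosome 12, 112938051 to 112976460, plus strand), the largest of them, stood at 169.8, 164 and 160.1 CPM in KD libraries, against 119, 123 and 123 CPM in NC libraries. OAS3 rose by 0.44 with an SE of 0.040 (edgeR adjusted p = 4.38e-10) on the log2 scale, with no overlap between groups. OASL (chromosome 12, 121017763 to 121039246, minus strand), a relative without this enzyme activity that supports RIG-I signalling, stood at 4.32, 5.05 and 5.22 CPM in KD libraries, against 6.36, 6.88 and 6.57 CPM in NC libraries. OASL fell on both scales, with a log2 fold change of -0.44 with an SE of 0.114 (edgeR adjusted p = 0.00118) and of -1.62 on the leukocyte scale (edgeR adjusted p = 1.54e-13). All KD libraries were below all NC libraries, at a low level.

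The 5 IFI genes were higher on the scale of all tested genes by modest amounts, from 0.22 for IFI44L to 0.70 for IFI27. On the leukocyte scale 5 of 5 were lower. The background is 36.2% higher on the first scale and 82.9% lower on the second, so the count on the second is near it. IFI44L (0.032, edgeR adjusted p = 0.584) and IFI44 (0.10, edgeR adjusted p = 0.0812) did not pass when library sizes were used alone. IFI6 (chromosome 1, 27666064 to 27672212, minus strand), a small membrane protein that limits flavivirus replication, stood at 163, 175 and 174 CPM in KD libraries, against 125, 129 and 127 CPM in NC libraries. IFI6 rose by 0.43 with an SE of 0.041 (edgeR adjusted p = 7.29e-10) on the log2 scale and was lower, at -0.75 on the leukocyte scale (edgeR adjusted p = 2.02e-14). KD libraries stood above NC libraries without overlap, although 23.1% of its exon bases also lie in LINC02574 on the same strand. IFI35, a partner of NMI, was at 0.53 and IFI44 at 0.29, or -0.65 and -0.89 on the leukocyte scale. The mitochondrial protein gene IFI27 stood at 7.11, 6.20 and 6.92 CPM in KD libraries, against 4.81, 4.76 and 2.97 CPM in NC libraries, where NC replicate 3 was the lowest (shown in full after its values were seen). BST2 (chromosome 19, 17402939 to 17405630, minus strand), or tetherin, which holds budding virions at the cell surface, stood at 365, 355 and 346 CPM in KD libraries, against 245, 219.5 and 229 CPM in NC libraries. BST2 rose by 0.62 with an SE of 0.044 (edgeR adjusted p = 3.00e-12) on the log2 scale, again without overlap, and was lower, at -0.56 on the leukocyte scale (edgeR adjusted p = 1.04e-10). LY6E, a surface protein that blocks coronavirus entry, was at 0.036 and did not pass (edgeR adjusted p = 0.635). Its KD replicate 1 lay below every NC library, and without that library LY6E passed at 0.13 (edgeR adjusted p = 0.0432).

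IFIT proteins bind foreign RNA by its 5' end, as in the case of IFIT1, which holds RNA whose cap lacks 2'-O methylation. The family divided, with 3 of 4 genes lower and 1 higher on the scale of all tested genes, and 4 lower on the leukocyte scale. Among all tested genes 40.3% were lower on the first scale and 82.9% on the second, so the count on the second is near the background. IFIT5 (chromosome 10, 89414568 to 89421605, plus strand), which binds 5'-triphosphate RNA, stood at 10.3, 10.7 and 11.7 CPM in KD libraries, against 15.2, 16.6 and 15.2 CPM in NC libraries. IFIT5 fell, with a log2 fold change of -0.52 with an SE of 0.079 (edgeR adjusted p = 1.76e-06) and of -1.71 on the leukocyte scale (edgeR adjusted p = 8.72e-18). IFIT3 (chromosome 10, 89327307 to 89377473, plus strand), which steadies IFIT1 in a complex, stood at 157, 158 and 148 CPM in KD libraries, against 136, 123 and 129 CPM in NC libraries. IFIT3 rose by 0.26 with an SE of 0.044 (edgeR adjusted p = 1.06e-05) on the log2 scale, did not pass with library sizes alone (0.069, edgeR adjusted p = 0.113), and was lower, at -0.93 on the leukocyte scale (edgeR adjusted p = 1.18e-15). In both cases KD and NC libraries did not overlap. IFIT2 (-0.35) and IFIT1 (-0.17) fell on the scale of all tested genes and were at -1.53 and -1.35 on the leukocyte scale, where the values are log2 fold changes.

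The IFITM proteins sit in membranes and hinder their fusion with viral envelopes. IFITM1 (chromosome 11, 310041 to 315272, plus strand) stood at 6.25, 6.38 and 7.35 CPM in KD libraries, against 7.49, 9.22 and 8.52 CPM in NC libraries. IFITM1 fell, with a log2 fold change of -0.34 with an SE of 0.106 (edgeR adjusted p = 0.00594) and of -1.52 on the leukocyte scale (edgeR adjusted p = 9.77e-14). The highest KD library was just below the lowest NC library. IFITM3 (chromosome 11, 319676 to 329475, minus strand) stood at 16.3, 16.3 and 14.8 CPM in KD libraries, against 13.0, 14.8 and 14.0 CPM in NC libraries. IFITM3 was barely past the threshold, at 0.18 with an SE of 0.076 (edgeR adjusted p = 0.0325) on the log2 scale, and did not pass without KD replicate 1 or 2 or NC replicate 1 or 3 (edgeR adjusted p = 0.0613 to 0.165). The groups were separate by less than their own ranges. It did not pass with no filter, with a mean of at least 1 CPM or with DESeq2 either. With library sizes alone it stood at -0.0060, and on the leukocyte scale at -1.001. IFITM2 at 0.32 did not pass (edgeR adjusted p = 0.0705), and its value depended on single libraries. Without NC replicate 2 it passed (0.47, edgeR adjusted p = 0.0186), while without NC replicate 1 (0.22, edgeR adjusted p = 0.269) or KD replicate 3 (0.25, edgeR adjusted p = 0.206) it came to less. The 3 genes are near-identical in part, so reads can be shared among them, and 31.6% of the exon bases of IFITM1 lie in exons of other genes of the table as well.

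MX1, RSAD2 and HERC5 fell on both scales. Among all tested genes 40.3% were lower on the scale of all tested genes and 82.9% on the leukocyte scale. These falls do not stand for the list, in which 29 genes were higher and 9 lower on the first scale. IFI27 (0.70), IFI6 (0.43) and OAS1 (0.38) were among those that rose there, and ISG15 (-0.029) did not pass. MX1 (chromosome 21, 41420020 to 41470071, plus strand), a GTPase that blocks influenza virus, stood at 92.0, 92.1 and 87.9 CPM in KD libraries, against 131, 129.6 and 130.4 CPM in NC libraries. MX1 fell, with a log2 fold change of -0.53 with an SE of 0.040 (edgeR adjusted p = 1.06e-11) and of -1.71 on the leukocyte scale (edgeR adjusted p = 2.15e-22). RSAD2 (chromosome 2, 6865557 to 6898239, plus strand), or viperin, which turns CTP into a chain terminator of viral polymerases, stood at 42.0, 40.1 and 39.8 CPM in KD libraries, against 69.9, 68.8 and 74.1 CPM in NC libraries. RSAD2 had the largest fall of the list, with a log2 fold change of -0.80 with an SE of 0.047 (edgeR adjusted p = 5.29e-14) and of -1.99 on the leukocyte scale (edgeR adjusted p = 3.79e-23). For both genes every KD library lay well below the NC libraries. MX2, which acts on HIV capsids, was at -0.061 (edgeR adjusted p = 0.236) and CMPK2, a mitochondrial nucleotide kinase, at -0.22 (edgeR adjusted p = 0.053), and neither passed. With library sizes alone both MX2 (-0.25, edgeR adjusted p = 8.81e-05) and CMPK2 (-0.40, edgeR adjusted p = 0.00191) were lower. CMPK2 rested on single libraries. It passed without KD replicate 3 (-0.28, edgeR adjusted p = 0.0264) or NC replicate 3 (-0.32, edgeR adjusted p = 0.00648), but came to less without KD replicate 1 (-0.14, edgeR adjusted p = 0.231) or NC replicate 2 (-0.12, edgeR adjusted p = 0.318). It also passed with no filter (edgeR adjusted p = 0.0248), with a mean of at least 1 CPM (0.0329) and with counts divided by 2 (0.0447). MX2 and CMPK2 were lower on the leukocyte scale, at -1.24 and -1.40.

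ISG15 is a ubiquitin-like protein that HERC5 attaches to newly made proteins in human cells and USP18 removes. ISG15 (chromosome 1, 1001138 to 1014540, plus strand) stood at 33.8, 35.6 and 35.8 CPM in KD libraries, against 35.9, 38.1 and 33.5 CPM in NC libraries. The groups overlapped and it did not pass, with a log2 fold change of -0.029 with an SE of 0.055 (edgeR adjusted p = 0.638), while it was lower with library sizes alone (-0.22, edgeR adjusted p = 0.00287) and stood at -1.21 on the leukocyte scale (edgeR adjusted p = 1.61e-17). HERC5 (chromosome 4, 88457119 to 88506163, plus strand) stood at 15.9, 14.7 and 14.1 CPM in KD libraries, against 27.1, 25.9 and 24.8 CPM in NC libraries. HERC5 fell, with a log2 fold change of -0.80 with an SE of 0.067 (edgeR adjusted p = 7.30e-11) and of -1.98 on the leukocyte scale (edgeR adjusted p = 1.40e-20), and its groups did not overlap. USP18, which also blocks the type I receptor, fell too (-0.32, or -1.50 on the leukocyte scale). HERC6, known as the main ISG15 ligase of mice, had a log2 fold change of 0.67, or -0.51 on the leukocyte scale.

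Many of these genes are neighbours, and the ratio of the counts of 2 genes within a library does not depend on the scale. Of 19 pairs of adjacent genes of the list within 500 kb, 16 had ratios that did not overlap between the groups, against 61.6% of all adjacent pairs of tested genes. HERC6 to HERC5 gave 1.30, 1.52 and 1.67 in KD libraries, against 0.522, 0.559 and 0.527 in NC libraries. There HERC6 had more counts than HERC5 in each KD library and fewer in each NC library. GBP2 to GBP4 gave 4.87, 4.91 and 4.36 in KD libraries, against 2.00, 1.92 and 2.18 in NC libraries. CMPK2 to RSAD2, which share 351 exon bases, gave 0.221, 0.256 and 0.280 in KD libraries, against 0.171, 0.198 and 0.136 in NC libraries, and MX2 to MX1 gave 0.525, 0.512 and 0.551 in KD libraries, against 0.392, 0.391 and 0.369 in NC libraries. In these pairs the first gene was thus larger relative to the second in every KD library. IFIT2 to IFIT3 went the other way, at 0.148, 0.134 and 0.156 in KD libraries, against 0.205, 0.238 and 0.224 in NC libraries. Ratios overlapped for IFI44L to IFI44, OAS1 to OAS3 and OAS3 to OAS2, for example OAS3 to OAS2 at 7.87, 6.998 and 7.09 in KD libraries, against 6.96, 7.33 and 8.02 in NC libraries.

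**Figure D3:**
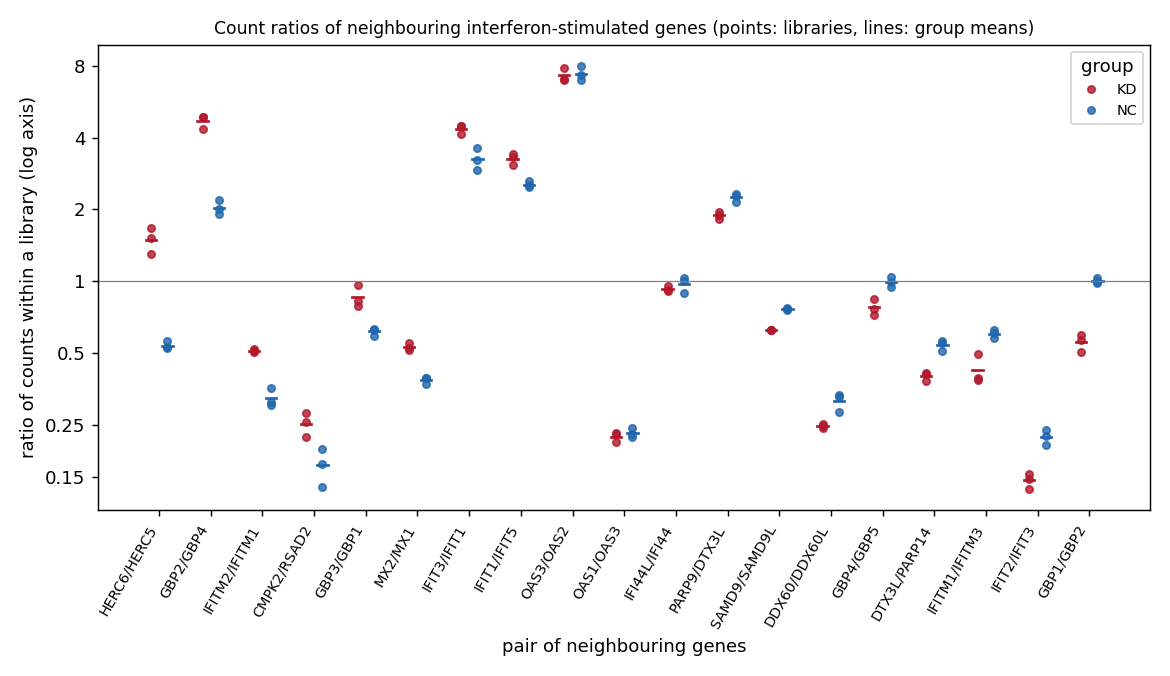
Ratio of the counts of neighbouring interferon-stimulated genes within each library (y axis, log scale) for 19 pairs (x axis), with a point per library, KD left of NC in each pair, and a line at each group mean. HERC6/HERC5 is farthest apart, with a mean of 1.495 in KD and 0.536 in NC libraries, and the OAS pairs overlap.

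Levels of different genes can be compared per length, as CPM per kilobase of exon in the deposited table, on that scale. BST2 led in both groups at 323 in KD and 210.0 in NC libraries, and IFI6 came second at 182 in KD and 135 in NC libraries. ISG15, whose CPM was modest, came next at 40.5 in KD and 41.3 in NC libraries. IFI16 followed in KD libraries (33.2 in KD and 11.4 in NC libraries) and IFIT3 in NC libraries (30.5 in KD and 25.5 in NC libraries). OASL, at 0.770 in KD and 1.04 in NC libraries, was the lowest tested gene in KD and second to IFI27, at 1.63 in KD and 1.01 in NC libraries, in NC libraries. Exon lengths in the table join all annotated transcripts, so genes with long rare exons, such as OAS3 at 18045 bases, appear lower than their main transcript would.

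The genes above the interferon-stimulated genes in the pathway were asked next, from lists of ligands, receptors, transducers, sensors and inhibitors. The ligands were close to absent in both groups. IFNB1, IFNG and all but 4 of the alpha, omega, kappa, epsilon and lambda genes had no count in any library, where a count of 0 allows up to 0.0698 to 0.0797 CPM per library by its total (3 counts, counting error only), and more if both mates of a fragment were counted. The others, IFNA21, IFNE, IFNW1 and IFNL1, had between 1 and 4 counts in the libraries that held any. Of 36 tested genes of all lists, 32 were higher and 2 lower on the scale of all tested genes, while the leukocyte scale gave 2 higher and 26 lower. JAK1, IRF3, IRF7, TRIM25 and PTPN11 lost their calls when library sizes were used alone, which left 27 higher and 2 lower. The shares on the scale of all tested genes were 88.9% higher and 5.6% lower, against a background of 36.2% and 40.3%. On the leukocyte scale they were 5.6% and 72.2%, against 3.65% and 82.9%. With library sizes alone the background is 28.4% and 47.3%. The lists of 6 genes are too short to be read against these.

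Among the receptors 5 of 6 were higher on the scale of all tested genes (background 36.2%). IFNAR1, a chain of the type I receptor, averaged 119 ± 1.37 CPM in KD and 68.7 ± 2.57 CPM in NC libraries, and the gamma receptor chain IFNGR1 103 ± 1.04 CPM in KD and 59.4 ± 1.79 CPM in NC libraries (SD, n = 3 each). IFNGR2 had a log2 fold change of 1.09, and these 3 stood at -0.39, -0.40 and -0.090 on the leukocyte scale, IFNGR2 without passing there. IFNLR1, the chain specific to lambda interferons, which is found mainly in epithelial cells, was the exception. It held 8, 4 and 8 counts in KD libraries, against 192, 224 and 189 in NC libraries, a log2 fold change of -4.78 with an SE of 0.255 (edgeR adjusted p = 9.05e-15) and of -5.95 on the leukocyte scale (edgeR adjusted p = 5.02e-19). The epithelial list summed to 13.2 to 14.8 CPM in KD libraries, against 616 to 661 CPM in NC libraries. Its genes were unequal. In NC libraries DSP averaged 389 CPM, DSG2 144, KRT8 57.8 and KRT18 46.2, but EPCAM only 2.84 and CDH1 0.997. KRT19 was alike, at 0.813 CPM in KD and 0.812 CPM in NC libraries, and CLDN6 was too low to be tested. What part RNA of epithelial cells has in the result was not tested.

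All 12 transducers were higher on the scale of all tested genes (background 36.2%). On the leukocyte scale 9 were lower, or 75%, against 82.9% of all tested genes, so the share lower is not above the background there. JAK1 (0.088, edgeR adjusted p = 0.0969), IRF3 (0.031, edgeR adjusted p = 0.518) and IRF7 (0.12, edgeR adjusted p = 0.412) did not pass when library sizes were used alone, and the KD and NC libraries overlapped for IRF7. IRF9, the DNA-binding partner of the STATs, averaged 103 ± 1.96 CPM in KD and 49.3 ± 2.22 CPM in NC libraries (log2 fold change 1.07, or -0.12 on the leukocyte scale). IRF8, a factor of the myeloid lineage, was at 1.31, the kinase JAK2 at 1.27 and IRF2 at 1.26. On the leukocyte scale they stood at 0.13, 0.084 and 0.079, and none passed. Of the sensing genes 10 of 12 were higher on the scale of all tested genes (background 36.2%). Among them were the kinases IKBKE (1.04) and TBK1 (0.79), both lower on the leukocyte scale (-0.14 and -0.39). The endosomal receptors TLR7 (2.20) and TLR9 (1.86) rose at very low levels, TLR7 with 16, 22 and 22 counts in KD libraries, against 4, 0 and 10 in NC libraries, and on the leukocyte scale TLR7 at 1.03 and TLR9 at 0.68 did not pass. MAVS, the adaptor of RIG-I and IFIH1, fell (-0.59, or -1.78 on the leukocyte scale), and the DNA sensor CGAS was higher on both scales (1.40 and 0.22), both chosen after their values were seen. Among the inhibitors 5 of 6 were higher on the scale of all tested genes (background 36.2%). SOCS3, which blocks JAK kinases, averaged 38.5 ± 1.14 CPM in KD and 13.6 ± 1.13 CPM in NC libraries and was higher on both scales (1.51 and 0.32), while SOCS1 (1.34) and the phosphatase PTPN6 (0.88) were at 0.17 and -0.30 on the leukocyte scale, SOCS1 without passing there.

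**Figure D4:**
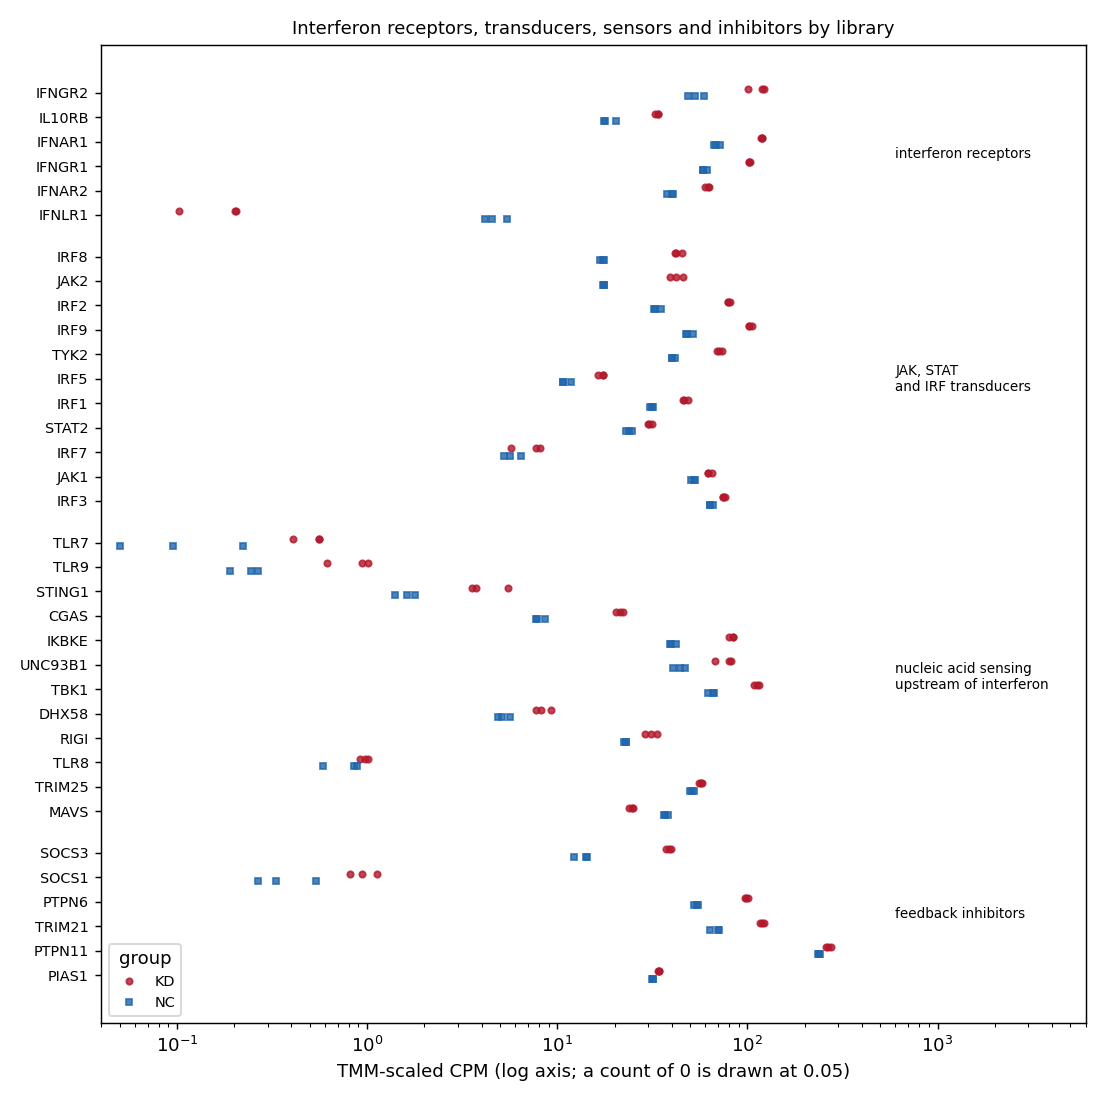
CPM on the scale of all tested genes (x axis, log scale, counts of 0 drawn at 0.05) of tested pathway genes outside the list (rows), with a point per library. KD circles lie right of NC squares for most genes, whereas MAVS and IFNLR1 lie the other way, IFNLR1 at 0.169 CPM in KD and 4.73 CPM in NC libraries, and most of the higher genes are lower on the leukocyte scale.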

How the data were processed

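RNA of PMA-treated THP-1 cells was sequenced in 3 KD and 3 NC libraries. The submitters' processing notes name fastp 0.23.0, a read trimmer, and the build GRCh38. The aligner, the counter and the use of strand were not given in the sources used here. Deposited by the authors were whole-number counts per gene, not normalized, with exon coordinates and exon length. Replicates differed by more than sampling noise in every pair (chi-square over its degrees of freedom, 3.25 to 6.54). Of the counts from 1 to 20, 67.8% to 70.3% were even, a pattern that counting the mates of a fragment singly would give, and small counts may stand for fewer fragments.

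The test was that of edgeR 4.0.16 under R 4.3.3 (quasi-likelihood, robust, TMM, filterByExpr, 21905 genes, two-sided, Benjamini-Hochberg over all of them). An SE was taken as the size of the log2 fold change over the root of F. The leukocyte scale takes TMM factors from 57 leukocyte genes. Members, lists and scales were chosen with earlier results of these data known, and the added effectors and the 1-base spacing after the values or sequences were seen. Samples in full are given for the member with the smallest p and the highest CPM of each role and for the 5 largest rises and falls, and others by range or log2 fold change. Pathway genes named are the 2 with the smallest p and the 2 with the largest change of each list, unless said otherwise, and some genes are not reported here by name. Alternatives were DESeq2 1.42.0 and its size factors, library sizes alone, the leukocyte scale, 2 other filters, limma-voom (3.58.1), no robust estimation, counts divided by 2, a replicate block and leaving out each library. The edgeR fit with TMM was tested on simulated data in which, unlike here, few genes differed, in equal numbers up and down. The leukocyte scale, the motif search and the count ratios were not tested in this way. Figures and motif counts used Python 3.11.15 with pandas 2.3.3 and matplotlib 3.10.9.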

Additional observations from a re-analysis of the deposited data

How the results depend on the processing

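The scale turned most directions. On the leukocyte scale 3 interferon-stimulated genes were higher and 38 lower, with a median of -0.78, against 800 higher and 18150 lower among all tested genes and 2 higher and 26 lower among the pathway genes. The 27 genes whose sign turned there had log2 fold changes of IFIT3 -0.93, IFITM2 -0.86, IFITM3 -1.001, OAS1 -0.80, OAS2 -0.72, OAS3 -0.75, HERC6 -0.51, IFIH1 -0.42, DDX60 -0.17, GBP1 -0.91, GBP2 -0.053, GBP3 -0.43, GBP5 -0.90, SAMD9 -0.30, SAMD9L -0.0037, PARP9 -0.55, DTX3L -0.30, IFI6 -0.75, IFI27 -0.49, IFI35 -0.65, IFI44 -0.89, IFI44L -0.96, BST2 -0.56, LY6E -1.15, ISG20 -0.77, XAF1 -0.49 and EPSTI1 -0.46. With library sizes alone the median was 0.21, 23 were higher and 13 lower, and IFITM3 (-0.0060) and LY6E (-0.15) turned. The median was 0.37 with no filter and 0.38 with a mean of at least 1 CPM. Leaving out each library in turn gave a median of 0.36 to 0.44, 28 to 30 higher and 9 to 10 lower, and ISG15 ran from -0.078 to 0.010 and LY6E from -0.018 to 0.13. With the replicate block 29 were higher and 9 lower and no gene of the list changed its call; same-numbered samples did not deviate together (r from -0.014 to 0.015). No other alternative moved the counts of calls beyond 28 to 29 higher and 9 to 10 lower. The cause of these changes was not tested. ZBP1 and the interferon genes had too few counts to be compared, and whether more depth would change that was not tested.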

Other observations

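Antiviral effectors outside the list, written down after the data were seen, also divided. Of 19 tested genes 13 were higher and 4 lower on the scale of all tested genes (background 36.2% and 40.3%). The leukocyte scale gave 0 higher and 17 lower, or 0% and 89.5% (background 3.65% and 82.9%), so the share lower is near the background there. NMI, the partner of IFI35, averaged 102 ± 3.58 CPM in KD and 45.9 ± 1.51 CPM in NC libraries (SD, n = 3 each), with a log2 fold change of 1.15, or -0.037 on the leukocyte scale. The double-stranded RNA kinase EIF2AK2 (PKR) had a log2 fold change of 0.25 and the RNA editor ADAR one of 0.42, and these stood at -0.93 and -0.77 on the leukocyte scale. The APOBEC3 cytidine deaminases, which are neighbours and can share reads, went both ways. APOBEC3G stood at 17.1, 16.7 and 15.8 CPM in KD libraries, against 7.57, 8.44 and 8.30 CPM in NC libraries, with a log2 fold change of 1.03, or -0.15 on the leukocyte scale. APOBEC3B stood at 2.21, 2.32 and 2.18 CPM in KD libraries, against 6.97, 6.20 and 6.95 CPM in NC libraries, with a log2 fold change of -1.58, or -2.77 on the leukocyte scale. APOBEC3C (-0.70) and APOBEC3D (-1.88) fell as well, and PNPT1, a mitochondrial RNA exonuclease, fell (-0.41). On the leukocyte scale these 3 stood at -1.88, -3.05 and -1.59, where the values are log2 fold changes. APOBEC3D was at a very low level, with 2, 2 and 8 counts in KD libraries, against 23, 14 and 12 in NC libraries.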
